A study of Mus musculus with 8 samples.

Results

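MHC class I presentation and the immunoproteasome were followed through 10 genes, all of them among the 12294 genes of the expression table. The genes were chosen by symbol, for their role: the heavy chains H2-D1 and H2-K1, the light chain B2m, the peptide transporter chains Tap1 and Tap2, the loading chaperones Tapbp and Calr, and the immunoproteasome subunits Psmb8, Psmb9 and Psmb10. They were measured in I1DN leukemic progenitor cells of mouse, sorted as cKit+ and CD11b- from mice that had received a transplant of I1DN cells. Every group therefore carried the same leukemia. The mice were given AG120 with AZA (AG120_AZA), AG120 alone, AZA alone or vehicle (Vehicle) for 5 days, and each of these 4 groups has 2 libraries. AG120 is AG-120, or ivosidenib, an inhibitor of mutant IDH1, and AZA is azacitidine, a nucleoside drug that traps DNA methyltransferases. Neither the labels nor the design give the strain or age of the mice or the meaning of the name I1DN. Sorting was done mouse by mouse, per the labels, but whether each library is another mouse is not stated, so p-values measure only the spread between these libraries.

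Nearly all nucleated cells display fragments of their own proteins on MHC class I molecules, which CD8+ T cells inspect. The proteasome cuts the proteins, and interferon makes cells replace 3 of its catalytic subunits with those encoded by Psmb8, Psmb9 and Psmb10. The Tap1 and Tap2 pair pumps the peptides into the endoplasmic reticulum, where tapasin (Tapbp) and calreticulin (Calr) help load them onto a heavy chain bound to beta-2-microglobulin (B2m). Leukemic cells with little class I on their surface can be hard for T cells to see.

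RNA was read by QuantSeq, which sequences the 3' end of polyadenylated transcripts. Values are log2 CPM (the log2 of read counts scaled to the same total in each library) as deposited, normalized so that every library has the same maximum of 13.37. Library totals were lost in that step and the depth is unknown. Within a library the values form steps, each worth at least 1 read, and the median gene lay 105 steps above the lowest value in AG120_AZA replicate 2 and up to 149 steps in the other libraries. AG120_AZA replicate 2 had the lowest mean deviation over the 10 genes. It was -0.95 log2, against -0.15 in AG120_AZA replicate 1 and between 0.02 and 0.36 in the other 6 libraries. That low mean rests mostly on Tap2 and Psmb9. Tap2 had -0.34 log2 CPM there against a mean of 4.58 over the 8 libraries, and Psmb9 had 4.40 against 6.67. Psmb10 and Tap1 lay above their means there (7.44 against 6.81 and 5.81 against 5.64). The sort marker Kit was detected in all libraries at 4.51 and 4.26 log2 CPM in AG120_AZA, 5.15 and 5.84 in AG120, 6.65 and 5.54 in AZA and 6.31 and 6.59 in Vehicle. Itgam, which encodes CD11b, lay between 2.10 and 4.53 log2 CPM. In such bulk samples fewer cells of a type and less RNA per cell cannot be told apart.

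The stretches before the start sites of the 5 genes with the smallest p in AG120_AZA against AZA, of the 10, are shown here because class I genes are known to be driven together through elements near their starts. They are the 250 bases upstream of the RefSeq start in build GRCm38.p6, 5' to 3' on the gene's own strand, at chr2:122147437-122147686, plus strand for B2m, chr17:35262844-35263093, plus strand for H2-D1, chr17:34000348-34000597, minus strand for H2-K1, chr17:34187331-34187580, minus strand for Psmb9 and chr17:34197945-34198194, plus strand for Psmb8. Capitals mark every match, on either strand, to GAAANNGAAA and GAANNGAAA (2 forms of an interferon response element), TTCNNNGAA (the core of a gamma-activated site), TGACG (the core of a cyclic AMP element) and CCAAT (the box bound by NF-Y).
B2m: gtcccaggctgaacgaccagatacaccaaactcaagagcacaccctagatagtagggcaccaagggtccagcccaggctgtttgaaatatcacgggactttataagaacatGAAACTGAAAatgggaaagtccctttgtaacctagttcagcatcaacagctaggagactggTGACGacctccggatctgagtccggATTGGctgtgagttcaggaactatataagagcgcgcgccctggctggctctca
H2-D1: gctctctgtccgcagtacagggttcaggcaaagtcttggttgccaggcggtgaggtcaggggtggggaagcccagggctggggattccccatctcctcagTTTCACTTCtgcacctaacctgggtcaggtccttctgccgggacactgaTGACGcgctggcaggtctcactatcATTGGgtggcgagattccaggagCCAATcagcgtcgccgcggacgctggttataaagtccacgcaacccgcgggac
H2-K1: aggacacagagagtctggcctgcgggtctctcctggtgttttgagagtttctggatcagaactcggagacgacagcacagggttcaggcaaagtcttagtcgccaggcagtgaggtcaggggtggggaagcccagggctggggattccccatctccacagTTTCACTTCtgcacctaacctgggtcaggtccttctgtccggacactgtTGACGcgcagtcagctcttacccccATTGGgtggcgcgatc
Psmb9: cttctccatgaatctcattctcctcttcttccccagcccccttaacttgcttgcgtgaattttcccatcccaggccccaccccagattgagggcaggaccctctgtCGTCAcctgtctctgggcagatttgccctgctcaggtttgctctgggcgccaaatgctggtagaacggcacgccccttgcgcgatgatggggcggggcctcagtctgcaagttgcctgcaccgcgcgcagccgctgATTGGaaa
Psmb8: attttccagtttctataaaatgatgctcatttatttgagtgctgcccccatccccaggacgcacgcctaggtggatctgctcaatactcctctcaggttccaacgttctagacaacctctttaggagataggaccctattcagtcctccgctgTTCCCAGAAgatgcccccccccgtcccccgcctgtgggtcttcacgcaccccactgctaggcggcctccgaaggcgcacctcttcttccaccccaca

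Of the 10 genes 9 had entries in the RefSeq promoter table, H2-K1 with a pair of start sites, and Tap2 had none. Counted over windows that also hold the 50 bases after the start, GAAANNGAAA stood in the B2m window, 139 bases before the start, and in 3.44% of all 32851 windows. GAANNGAAA, which is 1 base shorter and is not contained in the longer form, stood in the H2-D1 window at 150 bases and in the H2-K1 window at 90 bases before the start, and in 7.52% of all windows. TTCNNNGAA stood in the Psmb8 window, 97 bases before the start, and in 8.30% of all windows. TGACG occurred in the windows of B2m, H2-D1, H2-K1, Psmb9 and Tap1 and in 20.8% of all windows. CCAAT occurred in 7 of the 9 genes and in 37.4% of all windows. The windows of H2-D1 and H2-K1 shared an identical run of 47 bases and had 176 of 300 bases in shared runs of 8 bases or more. Psmb9 and Tap1 are transcribed away from each other, and their windows overlapped by 275 bases on opposite strands. A match is a match of letters and shows no bound factor.

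B2m and H2-D1, chains of the class I molecule itself, were lower with both drugs than with AZA alone. B2m, H2-D1 and H2-K1 had their lowest mean in AG120_AZA and their highest in AZA. B2m stood at 10.34 and 10.24 log2 CPM in AG120_AZA, 10.72 and 11.27 in AG120, 11.41 and 11.36 in AZA and 10.78 and 10.98 in Vehicle. Both AG120_AZA libraries lay below all 6 others. B2m fell in AG120_AZA against AZA by 1.09 ± 0.21 on the log2 scale (moderated SE, limma adjusted p = 0.0282), and was 2.13-fold lower. H2-D1, one of the classical heavy chains, had 8.36 and 7.99 log2 CPM in AG120_AZA, 8.37 and 8.50 in AG120, 9.12 and 9.16 in AZA and 8.30 and 8.58 in Vehicle. The AZA libraries stood above the 6 others. Among those, Vehicle overlapped both AG120 and AG120_AZA, and the AG120_AZA libraries lay just below the AG120 libraries (8.357 at the highest against 8.372 at the lowest). H2-D1 fell in AG120_AZA against AZA by 0.97 ± 0.20 (limma adjusted p = 0.0349), or 1.95-fold. H2-K1, the other classical heavy chain, had 8.68 and 8.72 log2 CPM in AG120_AZA, 8.78 and 8.89 in AG120, 9.84 and 9.36 in AZA and 9.01 and 9.26 in Vehicle. The 4 libraries with AG120 lay below the 4 without it. The H2-K1 difference between AG120_AZA and AZA was -0.90 ± 0.21, with a limma adjusted p of 0.0511, just outside the threshold of 0.05. H2-D1 and H2-K1 share stretches of sequence with each other and with other genes. Of the 50-base runs in the last 300 bases of their transcripts, 13.5% for H2-D1 and 9.54% for H2-K1 also occur in another gene's transcripts. Of the 76 shared runs of H2-D1, 30 occur in H2-K1. In Adsl and in Kcnk4, which are not heavy chains, 22 of them occur. Of the 88 shared runs of H2-K1, 71 occur in H2-D1 and 58 in H2-T23. How reads with several matches were counted is not stated, so the split between these heavy chains is uncertain.

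**Figure D1:**
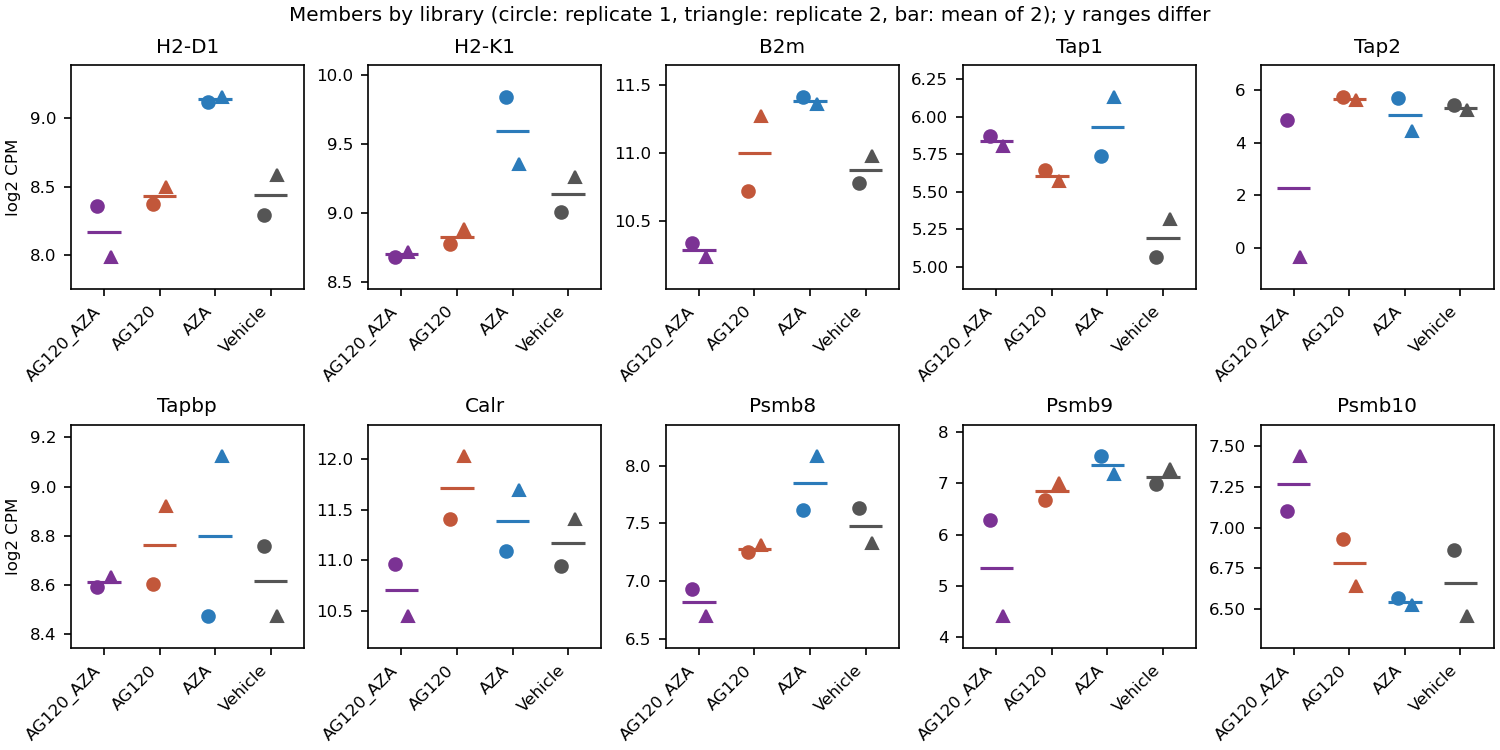
The log2 CPM of each of the 10 genes in every library, by group, with a circle for replicate 1, a triangle for replicate 2 and a bar for the mean of the 2; the y ranges differ between genes. B2m and Psmb8 have both AG120_AZA libraries below all others, H2-D1 has both AZA libraries above all others, and Tap2 stands at -0.34 in AG120_AZA replicate 2 and at 4.45 or above in the 7 other libraries.

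Of the 10 genes 4 were called lower and none higher in AG120_AZA against AZA (limma, adjusted p below 0.05 over all 12294 genes). Of all genes 2.26% were called in either direction and 1.2% were called lower. The 10 genes had a median change of -0.93, against 0.04 for all genes, and 9 of 10 changes were negative. Both AG120_AZA libraries lay below both AZA libraries for 6 of the 10 genes, which was so for 22.9% of all genes, and above them for Psmb10. The calls rest on few libraries. None of the 10 genes was called without AZA replicate 1, none without AG120_AZA replicate 2, and 1 (H2-K1) without AZA replicate 2; 1 (B2m) was called without AG120 replicate 1 and likewise without AG120 replicate 2. None was called without the mean-variance trend, and 1 (B2m) with a filter at a mean of 5 log2 CPM, with a replicate block or with only the groups compared. The sign stayed negative in all 13 alternatives for B2m, H2-D1, H2-K1, Psmb8 and Psmb9; B2m was called in 9 of them, H2-D1 and Psmb8 in 4, and H2-K1 and Psmb9 in 2.

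**Figure D2:**
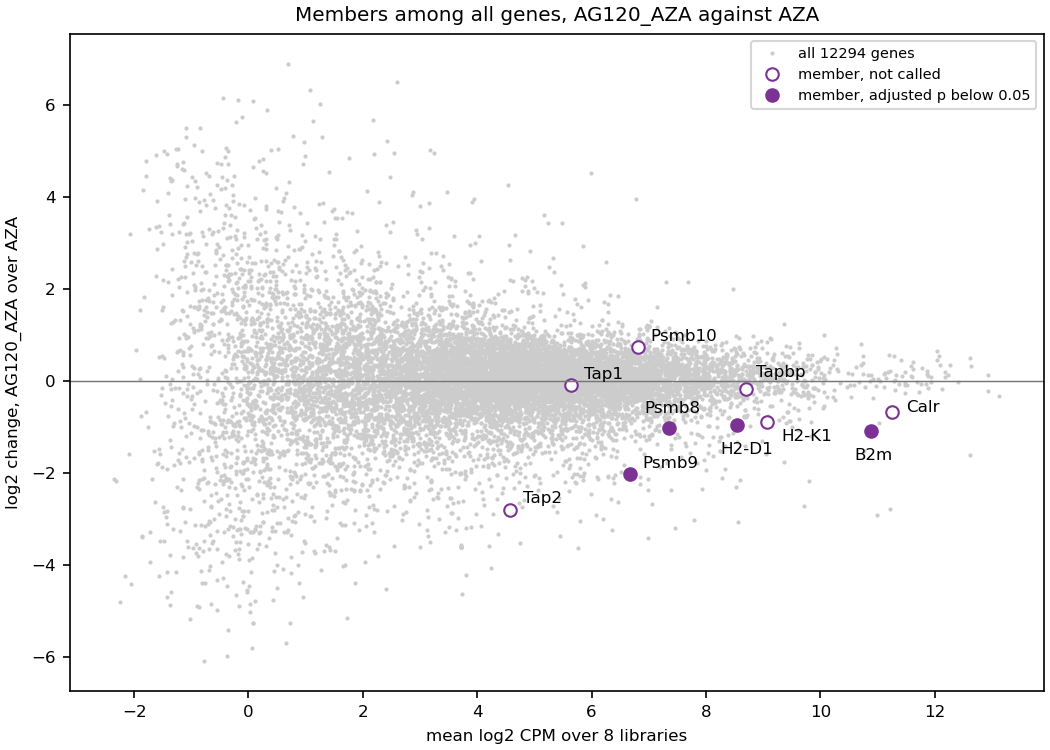
Log2 change of AG120_AZA over AZA for all 12294 genes against their mean log2 CPM over 8 libraries, with the 10 genes ringed and those with a limma adjusted p below 0.05 filled. B2m, H2-D1, Psmb8 and Psmb9 are filled below 0, and Psmb10 is the 1 of the 10 above 0.

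Tap1, Tap2, Tapbp and Calr, which supply and load the peptide, were not called in any comparison. Tap1, a chain of the transporter, had 5.87 and 5.81 log2 CPM in AG120_AZA, 5.64 and 5.57 in AG120, 5.74 and 6.13 in AZA and 5.07 and 5.32 in Vehicle. All 6 libraries with a drug lay above both Vehicle libraries. The Tap1 difference from Vehicle was 0.65 ± 0.24 in AG120_AZA (limma unadjusted p = 0.0226, adjusted p = 0.162), 0.41 ± 0.24 in AG120 and 0.74 ± 0.24 in AZA. Against AZA the Tap1 change in AG120_AZA was -0.09 ± 0.24, while Psmb9, which shares its promoter stretch, fell. Tap1 and Psmb9 also overlap in the annotation, on opposite strands, and whether reads were counted by strand is not stated. The overlap, at chr17:34187553-34187764, lies at the starts of both genes, whereas QuantSeq reads their 3' ends. Tap2, the other chain of the transporter, had 4.86 and -0.34 log2 CPM in AG120_AZA, 5.72 and 5.60 in AG120, 5.68 and 4.45 in AZA and 5.42 and 5.23 in Vehicle. In AG120_AZA replicate 2 Tap2 lay 3 steps above that library's lowest value, and in the 7 other libraries at least 119 steps. Its change in AG120_AZA against AZA was -2.80 ± 1.17 (limma adjusted p = 0.220); without that library it was -0.21. Tapbp, encoding tapasin, had 8.59 and 8.63 log2 CPM in AG120_AZA, 8.60 and 8.92 in AG120, 8.47 and 9.12 in AZA and 8.76 and 8.47 in Vehicle. Those groups overlapped, and Tapbp differed by -0.19 ± 0.24 between AG120_AZA and AZA, with a 95% interval of -0.71 to 0.34. Calr, encoding calreticulin, had 10.96 and 10.45 log2 CPM in AG120_AZA, 11.41 and 12.02 in AG120, 11.09 and 11.69 in AZA and 10.94 and 11.41 in Vehicle. Calr was highest with AG120 alone, and the AG120_AZA libraries lay below both single drug groups. The Calr difference was -1.01 ± 0.29 against AG120 (limma unadjusted p = 0.00538, adjusted p = 0.384) and -0.69 ± 0.29 against AZA (limma adjusted p = 0.228).

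Of the 3 immunoproteasome subunits 2, Psmb8 and Psmb9, fell in AG120_AZA against AZA. Psmb10 had a positive difference that was not called. Psmb8, which takes the place of Psmb5, had 6.93 and 6.70 log2 CPM in AG120_AZA, 7.25 and 7.31 in AG120, 7.61 and 8.08 in AZA and 7.64 and 7.33 in Vehicle. All 4 libraries with AG120 lay below the 4 without it, and the AG120_AZA libraries were the lowest. Psmb8 fell by 1.03 ± 0.22 in AG120_AZA against AZA, or 2.04-fold (limma adjusted p = 0.0420). Psmb9, which takes the place of Psmb6, had 6.28 and 4.40 log2 CPM in AG120_AZA, 6.67 and 7.02 in AG120, 7.53 and 7.19 in AZA and 6.98 and 7.28 in Vehicle. The AG120_AZA libraries lay below the 6 others but differed from each other by more than any other group did. Psmb9 fell by 2.02 ± 0.46 in AG120_AZA against AZA, or 4.07-fold (limma adjusted p = 0.0489); without AG120_AZA replicate 2 the difference was -1.09 and not called. Psmb10, which takes the place of Psmb7, had 7.10 and 7.44 log2 CPM in AG120_AZA, 6.93 and 6.64 in AG120, 6.57 and 6.53 in AZA and 6.86 and 6.46 in Vehicle. The AG120_AZA libraries were the highest. The Psmb10 difference from AZA was 0.72 ± 0.23 (limma unadjusted p = 0.00937, adjusted p = 0.124).

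Each immunoproteasome subunit was set against the constitutive subunit it replaces within the same library, as a difference of log2 values. Psmb8 minus Psmb5 averaged -1.10 ± 0.18 in the 4 libraries with AG120 and -0.04 ± 0.33 in the 4 without it (SD). The libraries with AG120 ranged from -1.32 to -0.92 and those without it from -0.52 to 0.21, so they did not overlap. The difference between those means was -1.07, with an exact two-sided permutation p of 0.0286, the smallest that 4 against 4 allows, and 0.171 after adjustment over 6 tests. Psmb9 minus Psmb6 averaged -2.80 ± 1.31 with AG120 and -1.51 ± 0.32 without it, a difference of -1.29 (exact permutation p = 0.0857, adjusted p = 0.257). The AG120_AZA libraries stood at -2.64 and -4.69, the AG120 libraries at -2.18 and -1.71, and the 4 without AG120 between -1.74 and -1.06. Psmb10 minus Psmb7 averaged -0.55 ± 0.76 with AG120 and -0.91 ± 0.46 without it, a difference of 0.37 (exact permutation p = 0.486, adjusted p = 0.72). For AZA the 3 differences were 0.06 for Psmb8, -0.75 for Psmb9 and 0.29 for Psmb10, with exact permutation adjusted p of 0.914, 0.72 and 0.72. Without AG120_AZA replicate 2 the difference of Psmb9 minus Psmb6 was -0.66 for AG120 and -0.028 for AZA, and with other libraries left out it reached -1.66 for AG120 and -1.24 for AZA. Of the replaced subunits, Psmb5 changed by 0.21 ± 0.22, Psmb6 by 0.24 ± 0.19 and Psmb7 by -0.46 ± 0.29 in AG120_AZA against AZA, and none was called. In AG120 against Vehicle, Psmb5 differed by 0.70 ± 0.22 (limma unadjusted p = 0.00988, adjusted p = 0.218) and Psmb8 by -0.20 ± 0.22. Psmb6 differed by 0.03 ± 0.19 and Psmb7 by 0.57 ± 0.29 there, also not called. The pair differences therefore hold changes of both subunits.

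**Figure D3:**
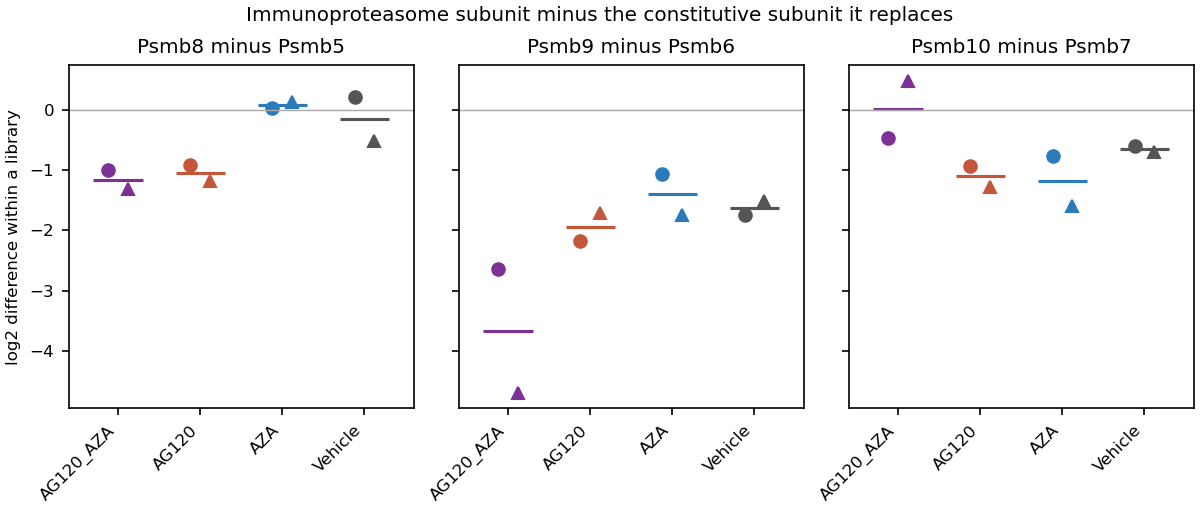
Log2 difference, within each library, between an immunoproteasome subunit and the constitutive subunit it replaces, by group, with a circle for replicate 1, a triangle for replicate 2 and a bar for the mean. Psmb8 minus Psmb5 is at or below -0.92 in all 4 libraries with AG120 and at or above -0.52 in the 4 without it.

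The remaining comparisons share libraries with the first or with one another, so their values stand side by side and are no separate evidence. Against Vehicle, AG120_AZA had 0 of the 10 genes called by limma, where 3.02% of all genes were called; 6 had an unadjusted p below 0.05, 4 of them lower and 2 higher, against 2631 of 12294 genes. Psmb9 came nearest, at -1.79 ± 0.46 (limma adjusted p = 0.0613). Its difference was -0.86 without AG120_AZA replicate 2, and -2.73 and called without AG120_AZA replicate 1. B2m differed by -0.59 ± 0.21 (limma adjusted p = 0.15). Against AG120, AG120_AZA had 0 of 10 called, where 0.0% of all genes were called; 4 had an unadjusted p below 0.05, all lower (B2m, Calr, Psmb9 and Tap2), against 1237 of 12294 genes. AG120 alone against Vehicle had 0 of 10 called, where 0.578% of all genes were called, and 0 with an unadjusted p below 0.05, against 1609 of 12294 genes. In that comparison B2m differed by 0.12 ± 0.21 and H2-D1 by -0.01 ± 0.20, with a 95% interval for H2-D1 of -0.45 to 0.44. AZA alone against Vehicle had 0 of 10 called, where 0.0% of all genes were called; 4 of 10 had an unadjusted p below 0.05, all of them higher in AZA, against 432 of 12294 genes. Those were H2-D1 (0.70 ± 0.20, limma unadjusted p = 0.00504), Tap1 (0.74 ± 0.24), B2m (0.50 ± 0.21) and H2-K1 (0.46 ± 0.21). For each, both AZA libraries lay above both Vehicle libraries, which was so for 1611 of 12294 genes.

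**Figure D4:**
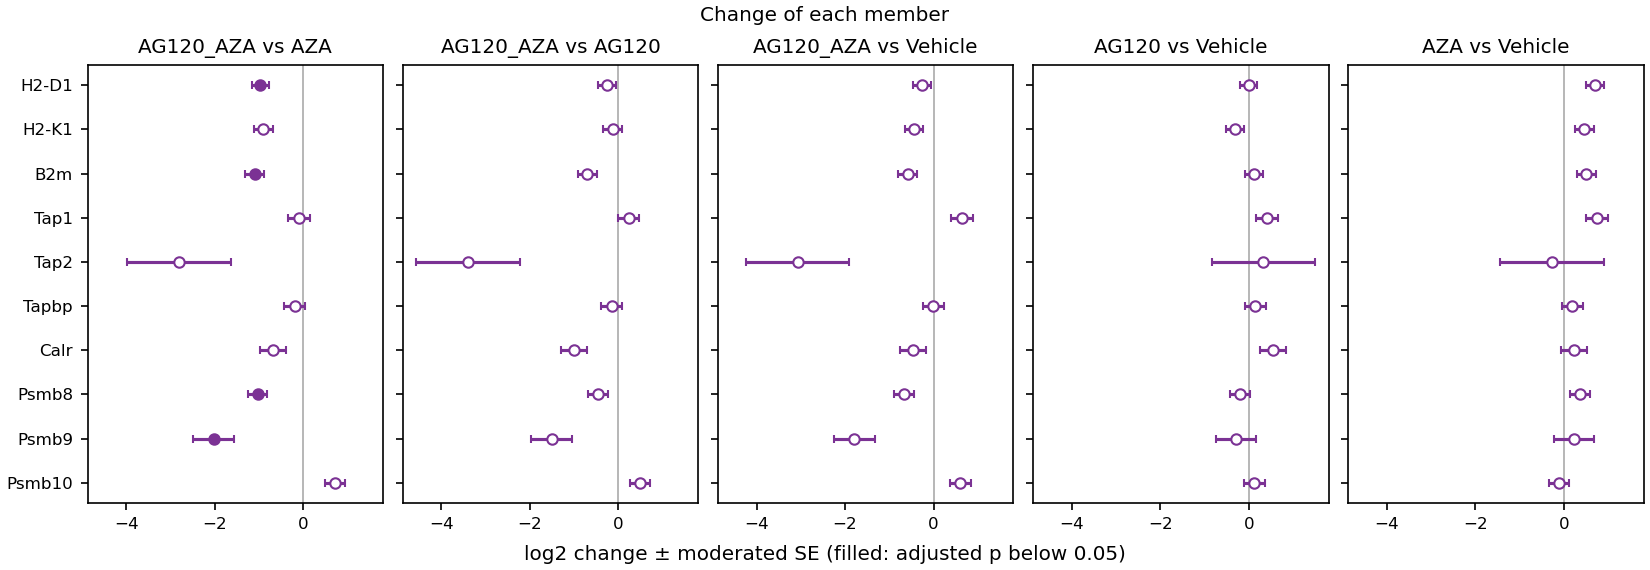
Log2 change of each of the 10 genes in 5 comparisons between groups, with moderated standard errors from limma; filled points have an adjusted p below 0.05. The filled points are B2m, H2-D1, Psmb8 and Psmb9 in AG120_AZA against AZA, all left of 0, and no point is filled in the 4 other comparisons.

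The 4 libraries with AG120 were also compared with the 4 without it, allowing for AZA. By limma 0 of the 10 genes were called, where 5.85% of all genes were, and 5 had an unadjusted p below 0.05, 4 of them lower (H2-K1, Psmb8, Psmb9 and H2-D1) and 1 higher (Psmb10), against 2811 of 12294 genes. H2-K1 differed by -0.60 ± 0.17 (limma adjusted p = 0.0544) and Psmb8 by -0.61 ± 0.19 (limma adjusted p = 0.0840). For both, the libraries with AG120 all lay below those without it, which was so for 736 of 12294 genes. With a pseudocount of 1 CPM, or without Vehicle replicate 1, or without AG120 replicate 2, H2-K1 was called. The 4 libraries with AZA against the 4 without it gave 0 of 10 called and 0.0% of all genes, with 1 of the 10 at an unadjusted p below 0.05 (Tap1, 0.49 ± 0.18), against 761 of 12294 genes. The interaction asks whether the effect of AZA differed in the presence of AG120. It gave 0 of 10 called and 0.0% of all genes, and 5 of 10 with an unadjusted p below 0.05, all negative, against 765 of 12294 genes. The interaction was -1.21 ± 0.30 for B2m (limma unadjusted p = 0.00206, adjusted p = 0.794).

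Of 9 measured other class I heavy chains, out of 24 listed, 1 was called in AG120_AZA against AZA, H2-Q7, where 2.26% of all genes were called. H2-Q7, a nonclassical heavy chain, had 2.03 and 2.89 log2 CPM in AG120_AZA, 2.23 and 3.16 in AG120, 5.75 and 5.59 in AZA and 4.23 and 4.50 in Vehicle. The 4 libraries with AG120 lay below the 4 without it. H2-Q7 fell by 3.21 ± 0.43 in AG120_AZA against AZA (limma adjusted p = 0.00505), by 1.90 ± 0.43 against Vehicle (adjusted p = 0.0396) and by 2.44 ± 0.37 with AG120 over both levels of AZA (adjusted p = 0.00353). Those calls held in 10 of 12, 4 of 12 and 11 of 11 alternatives. The genes of the H2-Q group are near copies of one another, so the symbol may hold reads of its neighbours. The 8 others, H2-T23, H2-T22 and H2-M3 among them, were not called in AG120_AZA against AZA, and the median of the 9 was -0.79.

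Of 31 measured regulators of class I transcription and interferon signalling 1 was called in AG120_AZA against AZA, where 2.26% of all genes were called. It was Irf1, and it was lower. Irf1 encodes an interferon regulatory factor known to drive class I and immunoproteasome genes. It had 6.34 and 6.31 log2 CPM in AG120_AZA, 6.73 and 6.81 in AG120, 7.91 and 7.52 in AZA and 7.66 and 7.83 in Vehicle. The 4 libraries with AG120 lay below the 4 without it, and AG120_AZA was lowest. Irf1 fell by 1.38 ± 0.21 in AG120_AZA against AZA (limma adjusted p = 0.00949), by 1.42 ± 0.21 against Vehicle (adjusted p = 0.00607) and by 1.18 ± 0.15 with AG120 over both levels of AZA (adjusted p = 0.00154). These calls held in 10 of 13, 11 of 13 and 12 of 12 alternatives. In that last comparison Ifnar2 (-0.80 ± 0.15), a chain of the type I interferon receptor, Irf8 (-2.18 ± 0.39), a myeloid regulatory factor, and Stat3 (-0.92 ± 0.19), a cytokine signal transducer, were the other 3 called of 31, all lower. Of all genes 5.85% were called there. Nlrc5, the class I transactivator, lay between 0.08 and 2.13 log2 CPM in all 8 libraries. In AG120_AZA against AZA it differed by -0.97 ± 0.78 (limma adjusted p = 0.530).

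Of 13 measured genes of peptide loading and trimming 0 were called by limma in AG120_AZA against AZA and 3 had an unadjusted p below 0.05 (Lap3 and Thop1 higher, Tapbpl lower), where 2404 of all 12294 genes had one. Thop1, a peptidase that destroys peptides in the cytosol, rose by 1.47 ± 0.32 with AG120 over both levels of AZA (limma adjusted p = 0.0214). Of 10 measured proteasome activator and assembly genes 0 were called in AG120_AZA against AZA, with 3 at an unadjusted p below 0.05, all higher. Psme1, a subunit of the interferon-inducible activator, differed by -0.12 ± 0.19. Psmg3, an assembly chaperone, rose by 0.51 ± 0.13 with AG120 over both levels of AZA (limma adjusted p = 0.0438). Of the 14 constitutive subunits of the core particle 0 were called in AG120_AZA against AZA, with 3 at an unadjusted p below 0.05, all higher, and a median change of 0.22.

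Of the 10 genes 7 lie in the mouse MHC, between Tapbp and H2-D1 at chr17:33915899-35267499 (GENCODE M21 gene spans, GRCm38). Along it stand Tapbp, H2-K1, then Psmb9, Tap1, Psmb8 and Tap2 next to one another, and H2-D1 at the other end. B2m is on chromosome 2, and Calr and Psmb10 are on chromosome 8. In AG120_AZA against AZA all 7 changes in the interval were negative, with a median of -0.97, and 3 were called. Of the other 76 measured genes in the same interval 33 had negative changes, their median was 0.12 and 0 were called by limma. Tap1, between Psmb9 and Psmb8, changed by -0.09 and was not called.

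**Figure D5:**
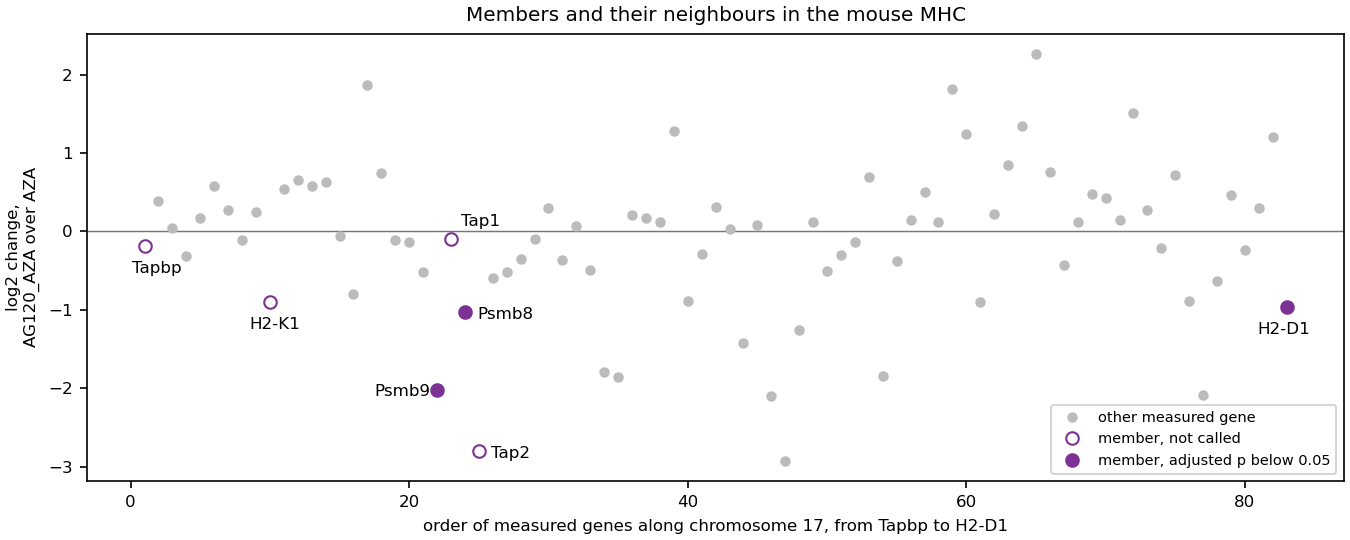
Log2 change of AG120_AZA over AZA for the measured genes from Tapbp to H2-D1, in their order along chromosome 17, with the 7 presentation genes ringed and those with a limma adjusted p below 0.05 filled. The 76 other genes lie on both sides of 0, whereas Psmb9, Psmb8 and H2-D1 are filled below 0 and Tap1 lies near 0.

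Markers of other cells moved with the same comparison. In it 2.26% of all genes were called and 2404 of 12294 had an unadjusted p below 0.05. Of 10 neutrophil markers 5 were lower in AG120_AZA than in AZA (limma, adjusted p below 0.05; median of the 10 -3.11), and their summed level was 2828 and 1069 CPM in AG120_AZA, 3927 and 6343 in AG120, 15359 and 11040 in AZA and 2859 and 12976 in Vehicle. Of 13 erythroid markers 5 were higher, Klf1 and Gata1 among them, and of 8 basophil and mast cell markers 3 were higher (Prss34, Mcpt8 and Ms4a2). Of 5 dendritic markers 1 was called higher (Zbtb46), while 3 of the 5 changes were negative and the median was -0.32. Of 9 monocyte and macrophage markers 0 were called and 3 had an unadjusted p below 0.05, all lower. The changes of that list went both ways, with 5 of 9 positive and a median of 0.19. Both AG120_AZA libraries lay above both AZA libraries for 3 of the 9 and below them for 3, against 3256 and 2812 of 12294 genes. The sort marker Kit fell by 1.71 ± 0.37 and Cd34, a progenitor surface antigen, by 3.24 ± 0.27. Of the 11 T and NK cell markers 3 were among the 12294 genes, and Cd3d, the one that defines T cells, was between -0.34 and 1.97 log2 CPM. The other measured markers were Gzma, with a mean of 0.07 log2 CPM over the 8 libraries, and Nkg7, with a mean of 9.52. The summed level of the 3 lay between 585 and 1100 CPM. The part of any of these cells in the values of the class I genes was not tested.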

How the data were processed

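QuantSeq 3' mRNA libraries, 2 in each of 4 groups, were analysed from 1 table of log2 CPM values that the authors deposited for 12294 genes as voom-normalized. The build was mm10, and the software named was edgeR 3.28.1 and limma 3.42.2 (R 3.6.2), HISAT2 2.1.0, cutadapt 1.14, Subread 1.6.3, featureCounts and bcl2fastq 2.17.1.14, per the submitters' processing notes; annotation, strand setting and treatment of multi-mapping reads are not stated. Library totals are lost in that normalization (sums of 999525 to 999562 CPM), so depth is unknown and no count test was run. The libraries appear matched by rank to a shared set of values.

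The log2 values were used with no filter or added constant. Limma 3.58.1 in R 4.3.3 (lmFit, eBayes with a mean-variance trend) fitted 4 group means (4 residual, 7.06 prior degrees of freedom), and 2 additive drug terms (5 and 6.85) for each drug over both levels of the other. Tests were two-sided, with Benjamini-Hochberg adjustment over all genes. Errors of changes are moderated SE. The fits were tested on simulated data. Alternatives were no trend, a filter at a mean of 5 log2 CPM, a pseudocount of 1 CPM, a replicate block, only the groups compared, and each library left out.

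The 10 genes and the other 16 lists were chosen with earlier results of these data known. Of those lists the text names up to 4 genes by smallest unadjusted p, the constitutive subunits and the sort markers. Nlrc5, Psme1, Cd74, Cd3d, Nkg7, Gzma and 3 H2-T and H2-M genes were added after their values were seen. Sequences are from RefSeq (GRCm38.p6), gene spans from GENCODE M21. One regulator is not reported here.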

Additional observations from a re-analysis of the deposited data

Results flagged for a closer look

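For 3 genes the AZA comparisons without and with AG120 separated the libraries in opposite directions. Both AZA libraries lay above both Vehicle libraries, as for 1611 of 12294 genes. Both AG120_AZA libraries lay below both AG120 libraries, as for 2535 of 12294 genes. How many genes had both patterns was not counted. The change in AG120_AZA against AG120 was -0.71 ± 0.21 for B2m. It was small for H2-D1 (-0.26 ± 0.20, limma unadjusted p = 0.215) and H2-K1 (-0.13 ± 0.21, limma unadjusted p = 0.544). The difference between the AZA effects with and without AG120, the interaction, was -1.21 for B2m, -0.96 for H2-D1 and -0.59 for H2-K1 on the log2 scale. None passed the limma test after adjustment over all genes (unadjusted p = 0.00206, 0.00593 and 0.0682, adjusted p = 0.794, 0.794 and 0.801). Within the 4 libraries with AG120, Tap2 had 1 library far from the rest, with a gap of 0.86 of the whole range, and Tapbp had 1 library far from the rest, with a gap of 0.87 of the range, above Dixon's 95% critical value for 4 values. For Tap2 it is AG120_AZA replicate 2 at -0.34 log2 CPM, and for Tapbp it is AG120 replicate 2 at 8.92. These came from 40 such tests, and chance flags about 1 in 20.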

How the results depend on the processing

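The 4 calls in AG120_AZA against AZA were the result most open to the settings. They numbered 0 without the mean-variance trend, 1 with the filter at a mean of 5 log2 CPM, 1 with a replicate block, 1 with only the groups compared, and 0 to 5 with a library left out. Over all genes the calls in that comparison numbered 278, against 9 without the trend, 67 with the filter, 14 without AZA replicate 1 and 30 without AG120_AZA replicate 2. Against Vehicle, AG120_AZA had 1 of the 10 called (Psmb9) with a pseudocount of 1 CPM and 0 to 2 with a library left out. Against AG120 it had 0 to 2, the interaction 0 to 2, and AG120 over both levels of AZA 1 with the pseudocount and 0 to 1; the counts of 2 were Psmb9 and Tap2 without AG120_AZA replicate 1. Replicate numbers did not pair the samples: deviations of libraries with the same number correlated at -0.11 to 0.19 over genes. The block changed no other count of calls. Some changes changed sign with a library left out. For AG120 over both levels of AZA the ranges were -0.32 to 0.17 for Calr, -1.96 to 0.12 for Tap2 and -0.12 to 0.14 for Tapbp. For AG120 against Vehicle they were -0.15 to 0.39 for B2m, -0.15 to 0.14 for H2-D1, -0.0758 to 0.33 for Psmb10 and -0.010 to 0.30 for Tapbp. For Tapbp they were -0.31 to 0.00719 in AG120_AZA against AG120, -0.51 to 0.14 against AZA and -0.14 to 0.14 against Vehicle, and for Tap1 -0.29 to 0.10 against AZA. For AZA against Vehicle they were -0.084 to 0.52 for Calr, -0.32 to 0.088 for Psmb10, -0.88 to 0.35 for Tap2 and -0.14 to 0.51 for Tapbp. The AZA differences ranged from -0.16 to 0.33 for Psmb8 minus Psmb5 and from -0.064 to 0.63 for Psmb10 minus Psmb7. The causes were not tested. With 2 libraries a group and depth unknown, a missing call shows no equality.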

Other observations

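Of 19 endoplasmic reticulum chaperone and folding genes, a group to which Calr is related by role, 17 had negative changes in AG120_AZA against AG120, with a median of -0.78 against 0.02 for all genes, and in 15 both AG120_AZA libraries lay below both AG120 libraries, against 2535 of 12294 genes. None was called by limma, and 10 had an unadjusted p below 0.05, all lower, against 1237 of 12294 genes. In AG120_AZA against AZA, 17 of 19 were negative with a median of -0.54, 0 were called and 6 had an unadjusted p below 0.05, against 2404 of 12294 genes. Of 10 measured genes of MHC class II presentation, whose products show peptides to CD4+ T cells, 0 were called by limma in AG120_AZA against AZA and 0 had an unadjusted p below 0.05, with a median of -0.24. Cd74, the class II invariant chain, lay between 3.99 and 6.76 log2 CPM over the 8 libraries, with the lowest and the highest in AG120 replicate 2 and AZA replicate 1.

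The genes whose 8 values followed the mean profile of the 10 class I presentation genes most closely, among genes with a mean of at least 3 log2 CPM, were Csnk2a2 (Pearson r = 0.98), Zdhhc8 (0.98), Unc5a (0.97), Ubqln2 (0.97) and Rogdi (0.97). The points are 8 libraries of 4 groups, and each of the 5 genes had its lowest value in AG120_AZA replicate 2, as the mean profile did. That low point of the profile rests mostly on Tap2 (-0.34 log2 CPM) and Psmb9 (4.40), so the likeness is not to each of the 10 genes. Over the same 8 libraries Psmb10 ran opposite to B2m (r = -0.90) and to Psmb9 (r = -0.92), and Tap1 followed neither H2-K1 (r = 0.05) nor Psmb9 (r = -0.23). These correlations describe 8 libraries that share their groups and carry no test.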
